A study of Mus musculus with 6 samples.

Results

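The genes described here are 35 genes of the cell cycle and of DNA replication, out of 55573 genes in the count table. They were chosen by symbol and matched to the table's Ensembl identifiers through GENCODE M21, and all 35 were found. Their transcripts were measured by RNA sequencing of total RNA from whole mouse lung, in 6 libraries. The SS-31H_CS group (3 libraries) came from wild-type C57BL/6 mice, 9 to 10 weeks old, exposed to cigarette smoke and given SS-31, a peptide that reaches mitochondria and acts as an antioxidant, at 5 mg/kg once a day, which the labels call the high dose. The CS group (3 libraries) came from wild-type C57BL/6 mice of the same age exposed to cigarette smoke without SS-31, for 75 min at a time in 2 daily sessions, 5 days weekly over 4 weeks. Smoke exposure is therefore shared by both groups, its schedule is stated for the CS group alone, and lungs of mice kept from smoke were not analysed here, so no smoke-free level stands beside these values. Library totals lay between 15611925 and 17360052 counts, and CPM below are counts scaled to a common library size with TMM factors, on which 3 counts amount to 0.172 to 0.185 CPM. The labels do not say that each library is a separate mouse, and the p-values measure the spread between these 6 libraries, which may be technical.

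A cell that divides copies its DNA in S phase and separates the copies in mitosis (M), with the gap phases G1 and G2 before each. Cyclins bind and switch on cyclin-dependent kinases (CDKs) in turn: cyclin E at the start of S phase, cyclin A through S and G2, and cyclin B at entry into mitosis. E2F transcription factors drive the genes needed for DNA copying, while many mitotic genes are switched on later through promoter elements called CHR and CCAAT boxes. In the adult lung most cells are at rest, and the cells that do cycle include immune and epithelial cells.

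The members were divided into 14 genes of the G1/S border and S phase and the other 21, called mitotic here. Most of the 21 act in mitosis or at its entry. They include Ccna2, whose cyclin A also acts in S phase, and Mki67 and Top2a, taken as markers of cycling cells. A promoter of 300 bases (250 before to 50 after the transcription start, RefSeq, GRCm38.p6) was found for 29 of the 35 members, Mcm7 having 2, and for 32851 starts in all. Aurkb, Ccna2, Ccne2, Foxm1, Mcm4 and Tpx2 had none in the table used. For E2f1, Cdc6, Cdca8 and Mcm7 the stretches lay wholly inside the gene as bounded in GENCODE M21. For these genes no base upstream of that bound was searched. Each promoter was searched on both strands for 4 forms of the E2F element (the letters TTGGCGC, with variants that read TTCCCGC, in other cases TTCGCGC, or else TTGCCGC), for 2 forms of the CHR (the letters TTTGAA, with the variant that reads TTCGAA) and for the box with the letters CCAAT. An E2F match was found in 61.5% of the S phase promoters (8 of 13), against 17.6% of the mitotic promoters (3 of 17) and 9.57% of all promoters. The order was the opposite for the CHR, with a match in 76.5% of the mitotic promoters (13 of 17), against 15.4% of the S phase promoters (2 of 13) and 19.2% of all promoters. A CCAAT box was found in 88.2% of the mitotic promoters, 69.2% of the S phase promoters and 37.4% of all promoters. Both a CHR and a CCAAT box stood in 76.5% of the mitotic promoters and in 7.52% of all promoters. These matches are descriptions of the letters, not of bound sites, and E2F and CCAAT matches can share bases.

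The promoters of 2 helicase genes and of 4 mitotic genes are printed 5′ to 3′ on the gene's own strand, as examples. Not every member is like them. The S phase genes Ccne1, E2f1 and Tk1 and the mitotic genes Birc5 and Nusap1 hold no match of any kind. Mcm2 and Pcna hold no E2F match. Whether the motifs bear on the levels below was not tested. Capitals mark matches to the E2F element, the CHR and the CCAAT box on either strand, where neighbouring matches can run into each other. They lie at chr8:75109259-75109558 (plus strand) for Mcm5, chr1:128359656-128359955 (minus strand) for Mcm6, chr9:70421505-70421804 (minus strand) for Ccnb2, chr4:118437294-118437593 (minus strand) for Cdc20, chr11:99024140-99024439 (minus strand) for Top2a and chr7:135716330-135716629 (minus strand) for Mki67.
Mcm5: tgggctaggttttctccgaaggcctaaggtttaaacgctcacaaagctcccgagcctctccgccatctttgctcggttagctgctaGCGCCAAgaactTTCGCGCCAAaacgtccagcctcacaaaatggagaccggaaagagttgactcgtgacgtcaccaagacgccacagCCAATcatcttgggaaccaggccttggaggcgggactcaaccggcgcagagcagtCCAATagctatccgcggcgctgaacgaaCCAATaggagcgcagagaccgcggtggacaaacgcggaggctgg
Mcm6: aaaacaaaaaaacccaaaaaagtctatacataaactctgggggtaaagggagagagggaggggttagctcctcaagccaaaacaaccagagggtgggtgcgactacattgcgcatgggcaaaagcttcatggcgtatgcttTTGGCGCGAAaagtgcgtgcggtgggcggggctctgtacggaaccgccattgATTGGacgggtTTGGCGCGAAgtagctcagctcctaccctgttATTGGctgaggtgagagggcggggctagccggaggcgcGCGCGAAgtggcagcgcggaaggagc
Ccnb2: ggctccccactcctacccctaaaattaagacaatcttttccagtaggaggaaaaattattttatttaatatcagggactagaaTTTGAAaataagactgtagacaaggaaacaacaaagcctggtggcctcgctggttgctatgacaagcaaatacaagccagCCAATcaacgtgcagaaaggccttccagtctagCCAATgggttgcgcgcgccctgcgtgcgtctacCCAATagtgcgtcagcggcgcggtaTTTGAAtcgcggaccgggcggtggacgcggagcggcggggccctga
Cdc20: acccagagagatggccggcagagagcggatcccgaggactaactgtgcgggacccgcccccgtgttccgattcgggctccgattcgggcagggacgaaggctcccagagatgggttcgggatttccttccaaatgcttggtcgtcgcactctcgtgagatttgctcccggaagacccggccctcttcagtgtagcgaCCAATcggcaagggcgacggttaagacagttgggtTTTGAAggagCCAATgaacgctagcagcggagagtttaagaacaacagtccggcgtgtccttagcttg
Top2a: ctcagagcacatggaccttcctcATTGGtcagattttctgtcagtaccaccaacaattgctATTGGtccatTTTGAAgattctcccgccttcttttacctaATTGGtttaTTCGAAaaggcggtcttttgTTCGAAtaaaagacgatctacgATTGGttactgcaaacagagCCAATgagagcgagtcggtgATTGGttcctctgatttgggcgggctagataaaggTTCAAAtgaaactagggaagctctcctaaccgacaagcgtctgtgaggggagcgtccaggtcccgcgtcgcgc
Mki67: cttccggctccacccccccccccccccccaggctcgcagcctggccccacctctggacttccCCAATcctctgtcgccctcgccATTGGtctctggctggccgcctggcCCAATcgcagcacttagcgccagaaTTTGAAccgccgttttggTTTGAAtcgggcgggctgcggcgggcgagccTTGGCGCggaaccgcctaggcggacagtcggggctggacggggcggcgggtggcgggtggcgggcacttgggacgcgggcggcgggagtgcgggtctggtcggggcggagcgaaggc
The Mcm5 and Mcm6 stretches hold E2F and CCAAT matches and no CHR. The Ccnb2, Cdc20 and Top2a stretches hold CHR and CCAAT matches and no E2F match, and the Mki67 stretch holds all 3 kinds.

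**Figure D1:**
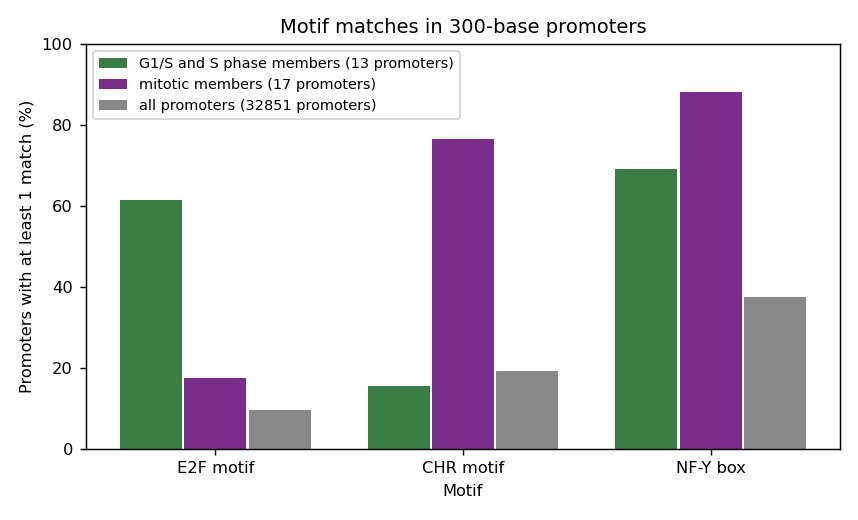
Percentage of promoters (y axis) that hold a match to the E2F element, the CHR or the CCAAT box, with the S phase members, the mitotic members and all 32851 promoters as separate bars. E2F matches stand in 61.5% of S phase and 17.6% of mitotic promoters, and CHR matches in 15.4% of S phase and 76.5% of mitotic promoters.

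No cell cycle gene passed the test for a difference between SS-31H_CS and CS lungs. Of the 34 members with enough counts to be tested, 0 passed an adjusted p of 0.05 in edgeR's quasi-likelihood model, with Benjamini-Hochberg adjustment over 16965 genes, of which 26 (0.153%) passed, 12 higher (0.0707%) and 14 lower (0.0825%) in SS-31H_CS lungs. DESeq2 and limma voom called 0 members as well, against 5.57% and 0.0354% of the genes each adjusted. At an unadjusted p under 0.05 edgeR counted 1 member, the helicase gene Mcm5, against 18.2% of all tested genes. Mcm5 was lower in SS-31H_CS lungs, as were 8.23% of all tested genes past the same threshold, and 9.93% were higher. The library values of the groups did not overlap for 2 members, Mcm5 and Mcm6, against 26.1% of all tested genes. Log2 fold changes, SS-31H_CS over CS, were above 0 for 20 members and below 0 for 14, where 51.4% of all tested genes were above 0 and 48.6% below. They ran from -0.38 for Mcm5 to 0.51 for Birc5, with a median of 0.087 for the members and 0.011 for all tested genes. In whole lung, a difference in the number of cycling cells cannot be told apart from a difference in RNA per cell.

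**Figure D2:**
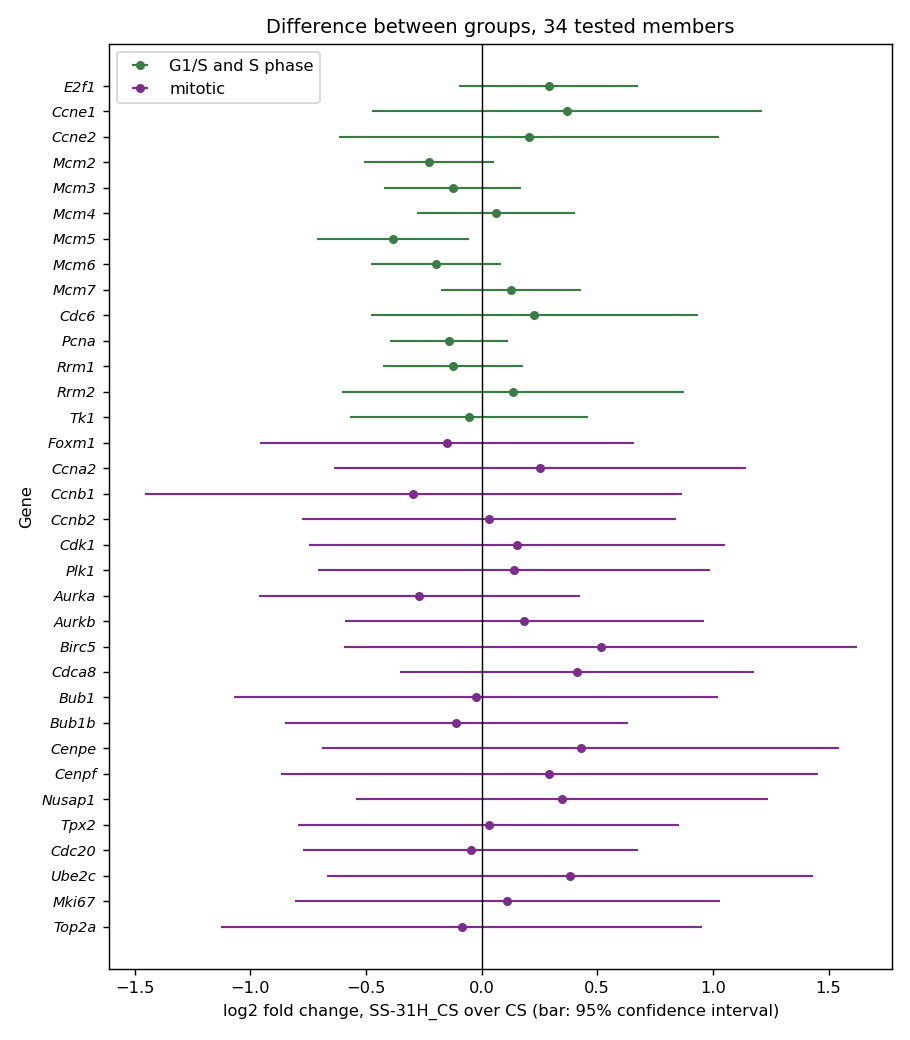
Log2 fold change of each tested member, SS-31H_CS over CS (x axis), with its 95% confidence interval as a bar, for S phase genes (green) and mitotic genes (purple). The interval of Mcm5, -0.71 to -0.055, is the one that does not include 0, and the intervals of the mitotic genes are wider than those of most S phase genes.

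At the G1/S border, neither the cyclin E genes nor E2f1 separated the groups. E2f1 (E2F transcription factor 1, which drives genes of DNA copying) was at 11.5, 10.4 and 12.1 CPM in the SS-31H_CS libraries, against 10.6, 9.00 and 8.21 CPM in the CS libraries. The SS-31H_CS values sat toward the top of the range, and the highest CS library lay above the lowest SS-31H_CS library. Its log2 fold change was 0.29 (SE 0.17, edgeR adjusted p = 0.399). Ccne1 (cyclin E1, partner of CDK2) was at 2.66, 4.89 and 2.18 CPM in the SS-31H_CS libraries, against 3.07, 2.58 and 1.85 CPM in the CS libraries. One SS-31H_CS library, replicate 2, was the highest of the 6, and replicates 1 and 3 lay among the CS values. The log2 fold change of Ccne1 was 0.37 with an SE of 0.37 (edgeR adjusted p = 0.616). Ccne2, the second cyclin E gene, had a log2 fold change of 0.20 (edgeR adjusted p = 0.786). It shares 17.4% of its exon bases with Ints8 on the other strand, and the strand setting of the counting is not given in the sources used here.

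The MCM2-7 genes, which encode the 6 subunits of the ring that opens DNA at replication origins, included the members with the lowest p. None of them passed the test, and 4 had negative and 2 had positive log2 fold changes, with a median of -0.16. Mcm5 (chromosome 8, 75109569 to 75128439, plus strand, GRCm38) was at 17.02, 20.96 and 15.9 CPM in the SS-31H_CS libraries, against 23.3, 24.8 and 22.2 CPM in the CS libraries. Every SS-31H_CS library was below every CS library. Mcm5 averaged 17.95 ± 2.67 CPM in SS-31H_CS lungs and 23.4 ± 1.33 CPM in CS lungs (SD, n = 3 each). Its log2 fold change was -0.38 (SE 0.14, unadjusted p = 0.0273, edgeR adjusted p = 0.225), and over all settings tried the lowest adjusted p was 0.194, from DESeq2. Of all tested genes, 12.4% had every SS-31H_CS library below every CS library.

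Mcm6 (chromosome 1, 128331590 to 128359664, minus strand) was at 30.4, 40.2 and 35.6 CPM in the SS-31H_CS libraries, against 40.96, 40.3 and 40.6 CPM in the CS libraries. The groups did not overlap, though SS-31H_CS replicate 2 and the lowest CS library were nearly level, and the CS values lay close together. The log2 fold change of Mcm6 was -0.20 (SE 0.12, edgeR adjusted p = 0.425). Mcm2 was at 22.2, 27.1 and 23.5 CPM in the SS-31H_CS libraries, against 29.98, 26.5 and 28.8 CPM in the CS libraries. The lowest CS library lay under the highest SS-31H_CS library, and the other libraries kept to their groups. Mcm2 had a log2 fold change of -0.23 (SE 0.12, edgeR adjusted p = 0.364). Without SS-31H_CS replicate 2, Mcm2, Mcm5 and Mcm6 had unadjusted edgeR p-values of 0.0461, 0.00831 and 0.0471, and none passed after adjustment (lowest edgeR adjusted p = 0.224). The library left out was the highest SS-31H_CS library for each of these genes. With all 6 libraries, 18.2% of all tested genes had an unadjusted p under 0.05, and the share in the smaller fit is not given here.

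The other helicase subunits overlapped between the groups. Mcm3 was at 27.6, 32.02 and 30.1 CPM in the SS-31H_CS libraries, against 34.9, 35.1 and 27.8 CPM in the CS libraries. CS replicate 3 was the low CS library, near the lowest SS-31H_CS value, and the log2 fold change was -0.13 (SE 0.13, edgeR adjusted p = 0.629). Mcm7 was at 40.8, 45.1 and 40.3 CPM in the SS-31H_CS libraries, against 43.02, 40.4 and 32.1 CPM in the CS libraries. Here CS replicate 3 lay below all other libraries, and the log2 fold change was 0.13 (SE 0.13, edgeR adjusted p = 0.633). Mcm7 shares 12.6% of its exon bases with other genes, among them Mir25 and Mir93 on its own strand and Ap4m1 and Cops6 on the other, so some of its reads could belong to these. Mcm4 had a log2 fold change of 0.063 (edgeR adjusted p = 0.846), also with CS replicate 3 as the lowest library. Summed over the 6 subunits, the level was 169, 203 and 184 CPM in the SS-31H_CS libraries, against 207, 206 and 179.6 CPM in the CS libraries, and the groups overlapped.

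Of the other replication genes, Pcna, the sliding clamp that holds DNA polymerase on DNA, was at 68.9, 76.3 and 75.2 CPM in the SS-31H_CS libraries, against 79.3, 73.9 and 89.96 CPM in the CS libraries. The groups overlapped, with the highest value in CS replicate 3, and the log2 fold change was -0.14 (SE 0.11, edgeR adjusted p = 0.523). Cdc6, which loads the helicase onto origins, had a log2 fold change of 0.23 (edgeR adjusted p = 0.717). Among the genes of nucleotide supply, Rrm2, the regulated subunit of ribonucleotide reductase, was at 5.32, 11.6 and 7.65 CPM in the SS-31H_CS libraries, against 7.97, 9.11 and 5.19 CPM in the CS libraries. The spread within each group covered the difference between them (0.14 on the log2 scale, SE 0.32, edgeR adjusted p = 0.846). Tk1 (thymidine kinase 1, of the salvage pathway) was at 12.2, 15.6 and 10.4 CPM in the SS-31H_CS libraries, against 14.8, 14.8 and 9.88 CPM in the CS libraries. Replicate 3 was the lowest library of each group, the groups overlapped, and the log2 fold change was -0.054 (SE 0.22, edgeR adjusted p = 0.916). Rrm1, the other subunit of ribonucleotide reductase, had a log2 fold change of -0.12 (edgeR adjusted p = 0.643). Over the 14 S phase members, 7 fold changes were above 0 and 7 below, with a median of 0.0046.

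**Figure D3:**
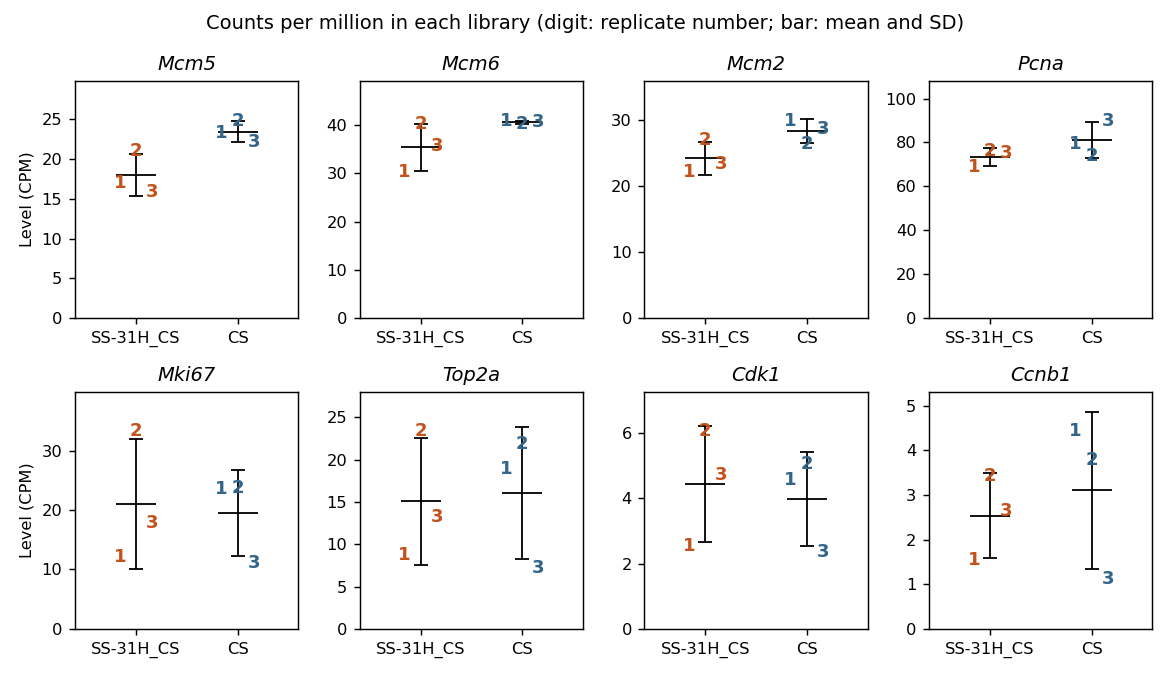
Level of 8 members (CPM, linear axis from 0) in SS-31H_CS (left) and CS libraries, with a digit at each library's value that gives its replicate number, and bars for the group mean and SD. The Mcm5 groups do not overlap, while Mki67, Top2a, Cdk1 and Ccnb1 are low in SS-31H_CS replicate 1 and in CS replicate 3.

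The mitotic genes differed more between libraries of a group than between the groups. Of the 20 tested, 13 had log2 fold changes above 0 and 7 below, with a median of 0.13, and for all 20 the values of the groups overlapped. Foxm1, a transcription factor for mitotic genes, was at 5.26, 6.84 and 7.35 CPM in the SS-31H_CS libraries, against 9.92, 8.08 and 3.58 CPM in the CS libraries. CS libraries held both the highest and the lowest value, and the log2 fold change was -0.15 (SE 0.35, edgeR adjusted p = 0.846). Cdk1, the kinase that starts mitosis, was at 2.54, 6.05 and 4.70 CPM in the SS-31H_CS libraries, against 4.54, 5.04 and 2.35 CPM in the CS libraries. Its low libraries were SS-31H_CS replicate 1 and CS replicate 3, and the log2 fold change was 0.15 (SE 0.39, edgeR adjusted p = 0.859). Ccnb1, the cyclin B1 partner of CDK1, was at 1.54, 3.42 and 2.65 CPM in the SS-31H_CS libraries, against 4.43, 3.78 and 1.11 CPM in the CS libraries. The CS values alone covered the whole range of the SS-31H_CS values, and the log2 fold change was -0.30 (SE 0.51, edgeR adjusted p = 0.781). The other genes of mitotic entry, Ccna2 (cyclin A2), Ccnb2 (cyclin B2), Plk1 (polo-like kinase 1) and Aurka (aurora kinase A, at the spindle poles), had log2 fold changes of 0.25, 0.032, 0.14 and -0.27, with edgeR adjusted p-values of 0.757, 0.970, 0.862 and 0.661. A pseudogene, Ccnb2-ps, held 268 counts over the 6 libraries and Ccnb1-ps held 29, so reads of these cyclins may be split with their copies. Ccna2 shares 12.5% of its exon bases with Exosc9 on the other strand.

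Genes of the spindle and of the chromosomal passenger complex had the 3 largest positive fold changes among the members (Birc5, Cenpe and Cdca8), with intervals that include 0. Birc5 (survivin, a subunit of the passenger complex) was at 2.54, 8.92 and 5.06 CPM in the SS-31H_CS libraries, against 5.25, 4.18 and 2.10 CPM in the CS libraries. SS-31H_CS replicate 2 was the highest library and CS replicate 3 the lowest, and the log2 fold change was 0.51 (SE 0.48, 95% confidence interval -0.59 to 1.62, edgeR adjusted p = 0.596). Cdca8 (borealin, of the same complex) was at 3.19, 5.87 and 5.12 CPM in the SS-31H_CS libraries, against 4.90, 3.21 and 2.53 CPM in the CS libraries. Of the 3 SS-31H_CS libraries, 2 lay above all CS libraries, SS-31H_CS replicate 1 lay among them, and the log2 fold change was 0.41 (SE 0.33, edgeR adjusted p = 0.538). Aurkb, the kinase of that complex, had a log2 fold change of 0.18 (edgeR adjusted p = 0.798). The spindle checkpoint genes Bub1 and Bub1b had log2 fold changes of -0.025 and -0.11. The kinetochore genes Cenpe and Cenpf had log2 fold changes of 0.43 and 0.29. The spindle genes Nusap1 and Tpx2 had log2 fold changes of 0.35 and 0.030, and the edgeR adjusted p of these 6 genes lay between 0.659 and 0.982.

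Kif11, the motor that pushes spindle poles apart, was barely counted and could not be tested. It had 2, 2 and 2 counts in the SS-31H_CS libraries, against 4, 7 and 0 counts in the CS libraries. Its authors' FPKM, a level per length of transcript, averaged 0.0233 over the 6 libraries, against 0.187 for Cenpf, the next lowest member, and 1.21 for Tpx2. No exon of another gene overlaps its exons in GENCODE M21, and the cause of the low count was not tested.

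Of the genes of mitotic exit, Cdc20, an activator of the anaphase-promoting complex, was at 6.09, 9.35 and 8.59 CPM in the SS-31H_CS libraries, against 11.3, 8.60 and 4.88 CPM in the CS libraries. The highest and the lowest library were both CS libraries, and the log2 fold change was -0.047 (SE 0.32, edgeR adjusted p = 0.950). Ube2c, the ubiquitin-conjugating enzyme of the same complex, had a log2 fold change of 0.38 (edgeR adjusted p = 0.682) and shares 22.8% of its exon bases with Tnnc2 on the other strand. Mki67, the gene of the Ki-67 protein used to stain dividing cells, was at 12.1, 33.2 and 17.8 CPM in the SS-31H_CS libraries, against 23.6, 23.7 and 11.1 CPM in the CS libraries. SS-31H_CS replicate 1 and CS replicate 3 were nearly level at the low end, and SS-31H_CS replicate 2 was highest. Mki67 averaged 21.1 ± 10.9 CPM in SS-31H_CS lungs and 19.5 ± 7.25 CPM in CS lungs (SD, n = 3 each), a log2 fold change of 0.11 (SE 0.40, edgeR adjusted p = 0.904). Its 95% confidence interval, -0.81 to 1.03, holds 0 and also sizeable differences in either direction. Top2a (topoisomerase IIα, which untangles chromosomes) was at 8.75, 23.3 and 13.2 CPM in the SS-31H_CS libraries, against 18.9, 21.9 and 7.16 CPM in the CS libraries. The libraries stood in the same order as for Mki67, and the log2 fold change was -0.087 (SE 0.45, edgeR adjusted p = 0.935).

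The mitotic genes were high or low together from library to library. The mean deviation of log2 CPM (prior count 2) from each gene's mean over the 6 libraries was, for the 20 tested mitotic members, -0.40, 0.54 and 0.085 in the SS-31H_CS libraries, against 0.40, 0.24 and -0.86 in the CS libraries, in replicate order. SS-31H_CS replicate 1 and CS replicate 3 were low, below the gene's own mean in 20 of 20 mitotic members each, and SS-31H_CS replicate 2 and CS replicate 1 were high. Summed CPM of the mitotic members was 85.3, 174 and 120.0 CPM in the SS-31H_CS libraries, against 153, 141 and 64.1 CPM in the CS libraries. For the 14 S phase members the deviations were smaller, -0.19, 0.26 and -0.074 in the SS-31H_CS libraries, against 0.12, 0.024 and -0.14 in the CS libraries. For all tested genes they were 0.011, 0.048 and 0.016 in the SS-31H_CS libraries, against -0.013, -0.0042 and -0.058 in the CS libraries. Such means can lie near 0 while single genes differ. On the main axis of variation over all tested genes (46.4% of the variance), the SS-31H_CS libraries scored 12.5, 25.6 and 44.8. The CS libraries scored -14.4, -7.19 and -61.3, so CS replicate 3 lay apart from the other CS libraries over all tested genes.

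Counted gene by gene, CS replicate 3 was the lowest CS library for 28 of the 34 tested members, including 20 of the 20 mitotic ones, against 41.7% of all tested genes. SS-31H_CS replicate 1 was the lowest library of its group for 26 members, against 35.1% of all tested genes. SS-31H_CS replicate 2 was the highest of its group for 29 members, against 31.5%. The median SD of log2 CPM within a group was 0.49 in SS-31H_CS and 0.65 in CS lungs for the mitotic members, 0.20 and 0.21 for the S phase members, and 0.19 in both for all tested genes. Counting error alone would give the mitotic members a median SD of 0.17 in SS-31H_CS and 0.18 in CS lungs, and the measured SD was above its counting error in 19 and in 20 of the 20 genes. The median SE of the log2 fold change was 0.39 for the mitotic members and 0.15 for the S phase members, against 0.18 for all tested genes.

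**Figure D4:**
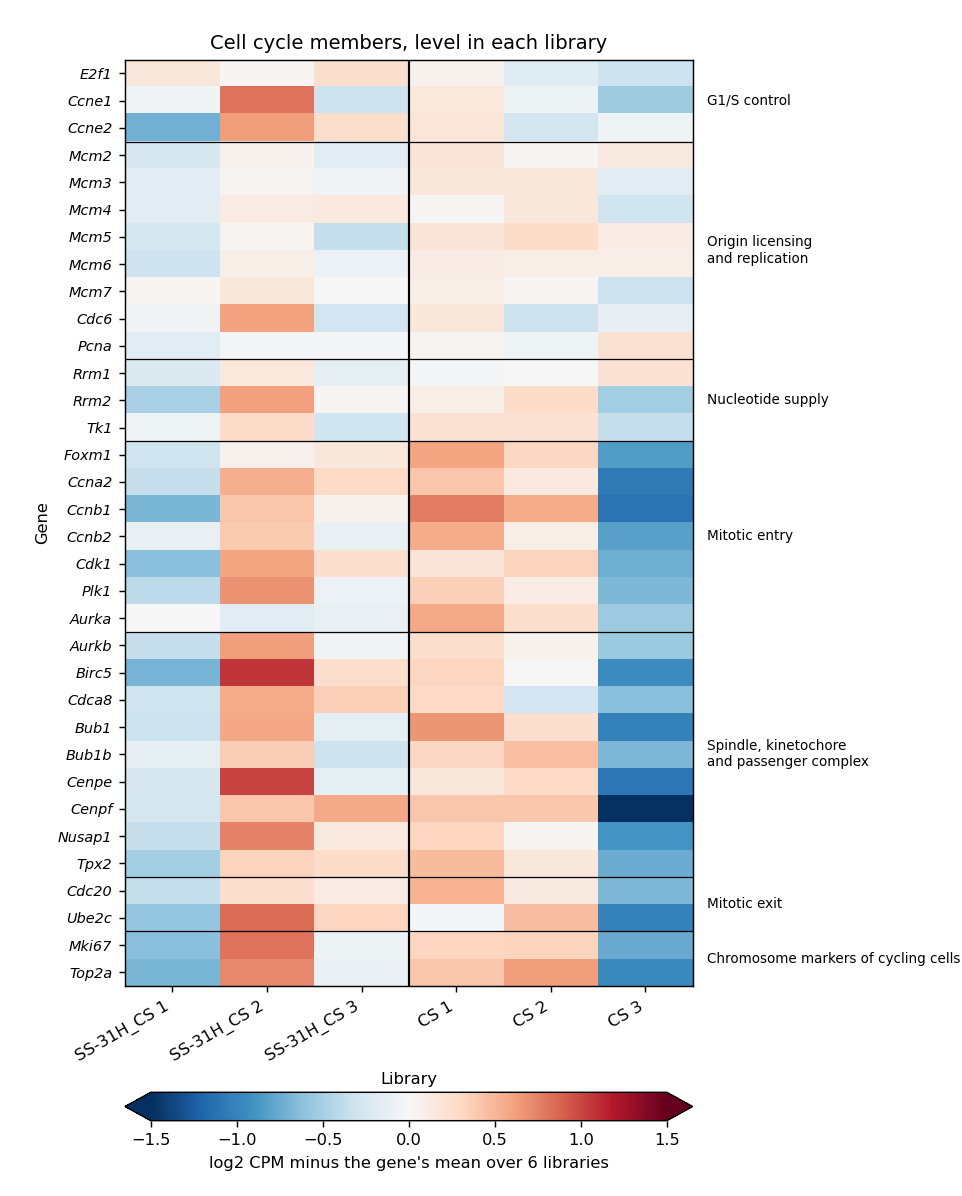
Deviation of log2 CPM from the gene's mean over 6 libraries (colour) for the 34 tested members (rows, by role) in each library (columns, SS-31H_CS left of CS). In the mitotic rows SS-31H_CS replicate 1 and CS replicate 3 are below the mean and SS-31H_CS replicate 2 is above it in 19 of 20.

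The median fold change of the members turned sign with single libraries left out. Without CS replicate 3 the median over the 34 members was -0.12 and that of the mitotic members -0.15. Without SS-31H_CS replicate 2 they were -0.17 and -0.16. With either CS replicate 1 or SS-31H_CS replicate 1 left out, the mitotic median was 0.36. In all, 22 members turned sign in at least 1 of the 6 fits that leave out a library, and 0 members passed in any of them. Aurka had an unadjusted edgeR p of 0.0474 (log2 fold change -0.53) without CS replicate 3, its lowest library, with an edgeR adjusted p of 0.355. The share of all tested genes under 0.05 in that fit is not given here, and it was 18.2% with all 6 libraries.

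Marker genes of other cell types varied over the same libraries. The 12 T and NK cell genes had mean deviations of -0.18, 0.93 and 0.14 in the SS-31H_CS libraries, against -0.024, 0.35 and -1.21 in the CS libraries, with summed levels of 104 to 234 CPM in SS-31H_CS lungs and 48.8 to 167 CPM in CS lungs. The 10 B and plasma cell genes had deviations of 0.29, 0.57 and 0.28 in the SS-31H_CS libraries, against -0.093, 0.33 and -1.37 in the CS libraries, with sums of 756 to 873 CPM in SS-31H_CS lungs and 496 to 837 CPM in CS lungs. CS replicate 3 was the lowest library of both lists, as for the mitotic members, and no gene of either list was at 0 in any library. By mean deviation it was also the lowest library for neutrophil precursor (-0.76), ciliated cell (-0.53), adipocyte (-0.22) and fibroblast genes (-0.14). SS-31H_CS replicate 3 was nearly level for neutrophil precursors (-0.73), as was CS replicate 2 for adipocytes (-0.21). By summed level, CS replicate 3 was lowest for fibroblast genes (3035 CPM) but highest of the 6 for neutrophil precursors (1836 CPM). Its adipocyte (37.5 CPM) and ciliated cell sums (2370 CPM) were above those of CS replicates 1 and 2. Not every list had its lowest mean deviation in CS replicate 3. Deviations in CS replicate 3 were 0.0063 for the 4 tested germinal centre B cell genes and 0.19 for 8 monocyte and interstitial macrophage genes. Erythroid genes (7 tested) had deviations of 0.14, 0.56 and 0.50 in the SS-31H_CS libraries, against 0.15, 0.54 and -1.89 in the CS libraries, and the 6 neutrophil genes 0.78, -0.58 and -2.03 in the SS-31H_CS libraries, against 0.65, 0.35 and 0.84 in the CS libraries. CS replicate 3 was far below the others in erythroid genes, and the neutrophil genes were lowest in SS-31H_CS replicate 3, which was not a low library for the mitotic members. The part of these cells in the levels of the cell cycle genes was not tested. The lung's own markers were high in every library, with the 5 tested alveolar type 1 genes summing to 4234 to 5288 CPM in SS-31H_CS lungs and 5487 to 6179 CPM in CS lungs. Over the 17 cell type lists, edgeR called 1 gene, the club cell gene Scgb3a2 (log2 fold change 1.44, edgeR adjusted p = 0.0467), against 0.153% of all tested genes, and voom called 0. DESeq2, which called 5.57% of all genes it adjusted, called 7 of 10 ciliated cell genes, 2 genes each of the club cell, alveolar macrophage and endothelial lists, and 1 each of the germinal centre B cell, neutrophil precursor, monocyte and interstitial macrophage, alveolar type 2 and fibroblast lists. Some lists share genes, such as Chil3 in the neutrophil precursor and alveolar macrophage lists, so a gene may be counted in more than 1 list.

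**Figure D5:**
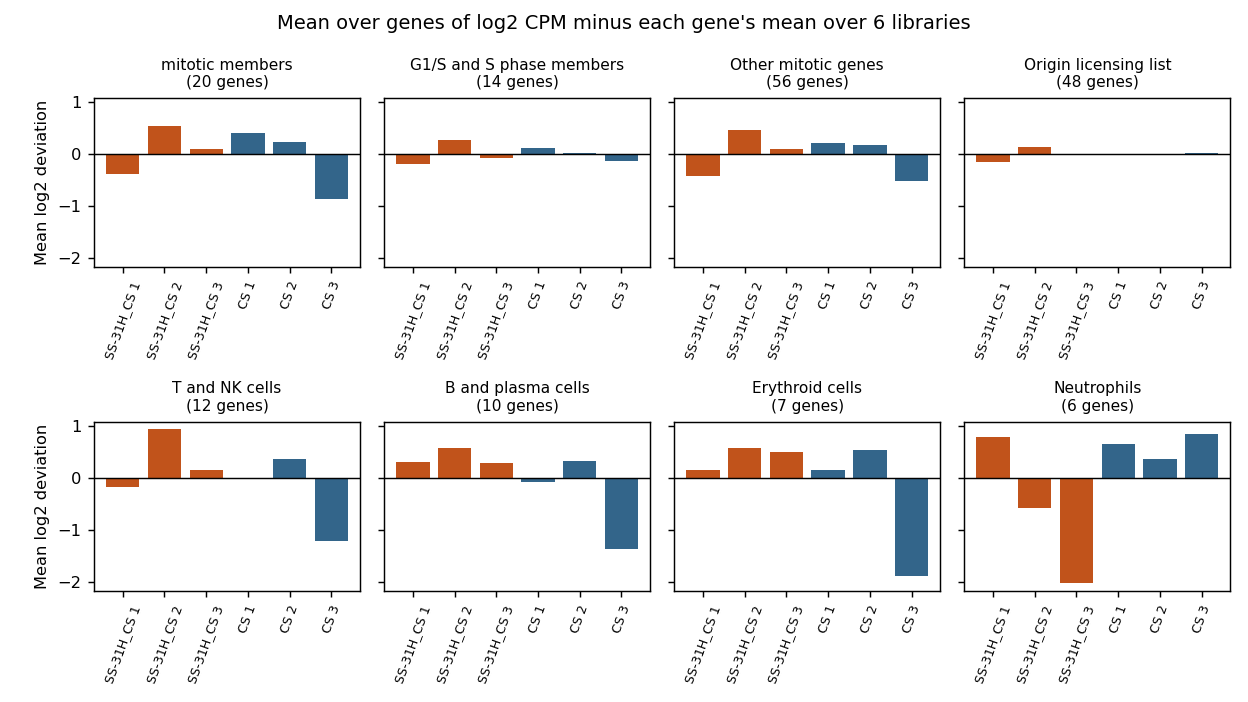
Mean deviation of log2 CPM per library (y axis) for the mitotic and S phase members, for further cell cycle lists and for markers of other cell types, with SS-31H_CS libraries left of CS libraries. CS replicate 3 is lowest for the mitotic members, the other mitotic genes and the T and NK, B and plasma and erythroid lists.

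Beyond the members, 5 lists of neighbouring genes were compared, and 0 genes of any of them passed edgeR's adjusted threshold with the low-count filter. Without that filter, where 648 genes passed over the whole table, edgeR's adjusted p was 0.00311 for Cdkn1a, 0.00877 for Ccna1, 0.00700 for Trp73, 0.0155 for Myb and 0.0312 for Deup1. Other mitotic genes (56 tested) repeated the library pattern of the members, with deviations of -0.42, 0.47 and 0.089 in the SS-31H_CS libraries, against 0.22, 0.16 and -0.51 in the CS libraries. Their median log2 fold change was 0.090, and 0 had an unadjusted p under 0.05 or a DESeq2 or voom call. Those with the lowest p, with their log2 fold changes, were Pttg1 (securin, 0.30, edgeR adjusted p = 0.293), Cks2 (a CDK-binding protein, 0.53), Bub3 (a checkpoint protein, -0.20) and Cdca5 (sororin, 0.54). Further genes of origin licensing, the replication fork and nucleotide supply (48 tested) had a median of 0.013. At an unadjusted p under 0.05 there were 3, all higher in SS-31H_CS lungs, against 9.93% of all tested genes higher at that threshold: Rpa3 (a subunit of the single-strand binding protein, log2 fold change 0.56), Orc5 (an origin recognition subunit, 0.33) and Gmnn (geminin, the inhibitor of licensing, 0.51), with edgeR adjusted p-values of 0.235, 0.254 and 0.256. Neither DESeq2 nor voom called a gene of this list.

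The list of D cyclins, their kinases and G1 regulators (29 tested) had a median of 0.025 and 1 unadjusted p under 0.05, against 18.2% of all tested genes, for E2f4 (a repressor of the E2F family, log2 fold change -0.31, edgeR adjusted p = 0.240), with no call by DESeq2 or voom. Ccnd1 (cyclin D1) was at 144, 157 and 176 CPM in the SS-31H_CS libraries, against 129.6, 120.3 and 248 CPM in the CS libraries. CS replicate 3 was the highest library, the opposite of its place for the mitotic members, and the log2 fold change was -0.060 (edgeR adjusted p = 0.922).

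Among the CDK inhibitors and p53 targets (17 tested, median -0.013), 4 had an unadjusted p under 0.05, 3 lower and 1 higher in SS-31H_CS lungs, against 18.2% of all tested genes. DESeq2 called 1, Cdkn1a, against 5.57% of all genes it adjusted, and voom called 0. Cdkn1a (p21, which blocks cyclin-CDK complexes and is a main target of p53) was at 44.2, 44.2 and 44.05 CPM in the SS-31H_CS libraries, against 101, 134 and 436 CPM in the CS libraries. The SS-31H_CS libraries were nearly level and all below the CS libraries. Cdkn1a was highest in CS replicate 3, which was also the library lowest in mitotic transcripts, and a link between these was not tested. The log2 fold change was -2.34 (SE 0.50, edgeR adjusted p = 0.0994), -1.41 with an edgeR adjusted p of 0.0241 without CS replicate 3, and -2.37 with an adjusted p of 0.0110 by DESeq2. Cdkn1b (p27, a second CDK inhibitor) was at 96.6, 126 and 92.5 CPM in the SS-31H_CS libraries, against 85.7, 86.9 and 57.9 CPM in the CS libraries. Its groups did not overlap either, with SS-31H_CS above CS (as in 13.6% of all tested genes), and the log2 fold change was 0.45 (SE 0.19, edgeR adjusted p = 0.259). Sesn2 and Gadd45g, stress-induced genes, had log2 fold changes of -0.34 and -0.64 (edgeR adjusted p = 0.189 and 0.273).

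Genes that multiciliated cells use while they make many centrioles, several of them relatives of cell cycle genes, had larger fold changes than the members, a difference that was not tested. Of 11 listed, 7 were tested, with a median log2 fold change of 1.38, and 5 had an unadjusted p under 0.05, all higher in SS-31H_CS lungs, against 9.93% of all tested genes higher at that threshold. DESeq2 called 7 of the 9 it gave an adjusted p, against 5.57% of all genes it adjusted. With the low-count filter edgeR called 0, as did voom. Trp73 (p73, a p53 relative needed for multiciliated cells) was at 19.03, 15.2 and 31.2 CPM in the SS-31H_CS libraries, against 8.26, 9.86 and 7.16 CPM in the CS libraries. The groups did not overlap, and the log2 fold change was 1.37 (SE 0.28, edgeR adjusted p = 0.0902). Ccna1, the second cyclin A gene, was at 0.946, 2.57 and 1.41 CPM in the SS-31H_CS libraries, against 0, 0.0573 and 0.247 CPM in the CS libraries, where 2 CS libraries lay under the level of 3 counts. Deup1 (of the structure that multiplies centrioles) and Myb had log2 fold changes of 1.52 and 1.38 (edgeR adjusted p = 0.111 and 0.111), and Ccno (a cyclin of multiciliated cells) 0.54 (edgeR adjusted p = 0.351). Markers of ciliated cells (10 genes) had mean deviations of 0.16, 0.25 and 0.86 in the SS-31H_CS libraries, against -0.45, -0.29 and -0.53 in the CS libraries, highest in SS-31H_CS replicate 3 as was Trp73, and their part in these values was not tested.

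Per length of transcript, Pcna and most helicase genes were the most abundant members. By the authors' FPKM averaged over the 6 libraries, Pcna was highest at 32.1, followed by Mcm4 at 9.71, Mcm7 at 9.12, Mcm3 at 8.33, Mcm6 at 8.14 and Mcm5 at 5.17. Cdc20, at 4.37, was the highest mitotic member, and Mki67 and Top2a were at 2.03 and 1.74. The single-library ranges of Mcm4, Mcm7, Mcm3 and Mcm6 overlapped each other, so their order is not resolved by the spread. The tested members had 13 to 1457 counts in a library.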

How the data were processed

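Lung RNA libraries were grouped by their labels. Unnormalized counts of reads per gene were deposited by the authors for the 6 libraries, beside FPKM (counts scaled by gene length and library total). Per the submitters' processing notes, cutadapt 1.9.1, HISAT2 2.0.1, HTSeq 0.6.1 and GRCm38 were used. The annotation release, strand setting and gene model are not given in the sources used here. Identifiers were named through GENCODE M21 (55480 matched, 93 did not).

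Counts were compared with the quasi-likelihood test of edgeR 4.0.16 under R 4.3.3 (TMM scaling, low-count filter of minimum count 10 and total 15, two-sided, Benjamini-Hochberg adjustment over 16965 genes), checked on simulated data. A gene was said to change at an adjusted p under 0.05. Confidence intervals use the fit's SE and degrees of freedom. Alternatives were other size factors, filters, DESeq2 1.42.0, limma 3.58.1 (voom, and trend on log2 FPKM), a replicate block, a looser threshold and leaving out each library. Members and lists were chosen with earlier results of these data known. Library values are given for the 10 members with the lowest p and for 12 fixed ones; from other lists, up to 4 genes with the lowest p plus Cdkn1a, Ccnd1 and Ccno. Counting intervals cover counting error only.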

Additional observations from a re-analysis of the deposited data

How the results depend on the processing

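No member passed the adjusted threshold under any setting. The count of changed genes over all genes (26) was 12 with library size alone, 648 without the low-count filter, 941 with DESeq2, 6 with voom, 6, 5 and 4 with limma trend on log2(FPKM + 1), on log2(FPKM + 0.1) and on log2(FPKM + 1) without a filter, 299 at an adjusted p under 0.1, and 1 to 15 with 1 library left out, where the 2 libraries left in a group are taken to vary as the other group does; the cause was not tested. Replicate numbers did not pair the libraries (correlations of same-numbered deviations 0.0072, 0.036 and -0.057, with 1 of the 3 SS-31H_CS libraries closest to its own number), and with the replicate block 0 genes and 0 members passed. Library size alone moved the median of all genes to 0.066, on the log2 scale.

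Bub1, Cdc20, Foxm1, Tk1 and Top2a, and Ccnd1 of another list, turned sign under other settings. With library size alone, log2 fold changes were 0.028 for Bub1, 0.0045 for Cdc20, 0.00064 for Tk1 and 0.0070 for Ccnd1. With voom they were 0.070 for Bub1, 0.0038 for Cdc20 and 0.014 for Ccnd1. On log2(FPKM + 1), with and without the filter, they were 0.026 for Bub1, 0.044 for Cdc20, 0.0037 for Tk1 and 0.067 for Ccnd1. On log2(FPKM + 0.1) they were 0.11 for Bub1, 0.065 for Cdc20, 0.0063 for Foxm1, 0.0072 for Tk1, 0.0036 for Top2a and 0.071 for Ccnd1. With the replicate block they were 0.063 for Bub1, 0.0074 for Cdc20 and 0.016 for Ccnd1. With 1 library left out, the log2 fold changes that turned sign ran as Aurkb -0.15 to 0.38, Birc5 -0.020 to 0.85, Bub1 -0.39 to 0.36, Bub1b -0.39 to 0.10, Ccna2 -0.082 to 0.54, Ccnb1 -0.70 to 0.039, Ccnb2 -0.27 to 0.37, Ccnd1 -0.25 to 0.35, Ccne1 -0.050 to 0.59, Ccne2 -0.11 to 0.50, Cdc20 -0.32 to 0.24, Cdc6 -0.086 to 0.40, Cdk1 -0.14 to 0.42, Cenpe -0.12 to 0.68, Cenpf -0.13 to 0.56, Foxm1 -0.48 to 0.14, Mcm4 -0.060 to 0.17, Mki67 -0.38 to 0.38, Plk1 -0.24 to 0.36, Rrm2 -0.20 to 0.36, Tk1 -0.23 to 0.070, Top2a -0.55 to 0.20, Tpx2 -0.26 to 0.30. Kif11 had too few counts to be tested, for a cause that was not tested, and the tested mitotic members had 13 to 544 counts in a library.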
